A study of Homo sapiens with 12 samples.

Results

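The genes described here build cholesterol and fatty acids or sense, move and regulate sterols. They were taken from a list of 36 gene symbols, and a gene was measured where the annotation of the array tied at least 1 probe set to that symbol alone. Of the 36 genes, 32 were measured, out of 19775 genes on the arrays, each by the probe set with the highest mean log2 value over all 12 arrays. They comprised 16 enzymes of sterol synthesis, 6 genes of sterol sensing and transport, 3 targets of the liver X receptor (LXR), the phosphatidate phosphatase LPIN1 and 6 enzymes of fatty acid synthesis. CYP51A1 and FADS1 were represented only by probe sets that the annotation shares with another symbol, 2 for CYP51A1 and 3 for FADS1, and these genes were left out. FDFT1 and ACSL3 were matched to no probe set and were not analysed here.

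The cells were PC9, a human lung adenocarcinoma line that depends on mutant EGFR, and each array measured RNA from one of 2 stable lines made from it. One line expressed pre-miR-371, the precursor of a microRNA, and the other carried a GFP vector. Each was grown for 24 h with erlotinib, which blocks the EGFR kinase, at 2 μM or with its solvent DMSO. The 4 groups were therefore pre-miR-371 with erlotinib, pre-miR-371 with DMSO, GFP vector with erlotinib and GFP vector with DMSO, with 3 arrays each. Each kind of line was represented by 1 stable line, and the effect of the microRNA cannot be told apart from other differences between the lines. The labels number the arrays of a group without naming separate cultures, and p-values therefore rest on the spread among these arrays. The paper states that its replicates were biological, without describing the cultures behind these arrays. From the labels alone, a technical spread cannot be told apart. All values are log2 expression values of probe sets, and a difference of 1 is a doubling.

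Cells hold sterol and fatty acid synthesis under one family of transcription factors, the sterol regulatory element-binding proteins (SREBPs). SREBP-2, encoded by SREBF2, acts mainly on genes of cholesterol synthesis, and SREBP-1, encoded by SREBF1, acts mainly on genes of fatty acid synthesis. When membranes hold enough sterol, INSIG proteins keep the escort protein SCAP and its SREBP cargo in the endoplasmic reticulum. When sterol is scarce, SCAP carries the SREBP to the Golgi apparatus, where proteases free its active part. LXR responds to oxysterols and raises genes of sterol export. Tumour cells with active EGFR signalling are known to make fatty acids from glucose-derived citrate through ACLY, ACACA and FASN.

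The promoters of 5 members and the mature microRNAs are shown first, because the results below turn on these genes and on the line that expressed the precursor. Sequences are those of RefSeq on GRCh38.p14, on the strand of the gene. Each promoter spans 250 bases before the annotated start and 50 bases from it. Capitals mark matches, on either strand, to 5 patterns. TCACNCCAC is a strict form of the sterol regulatory element, and each match to it also matches the looser form TCACNCNAC. TCACGTGA includes the E box CACGTG. The last pattern is the CCAAT box, which reads ATTGG from the opposite strand. INSIG1 and TM7SF2 had the largest rises with erlotinib, MSMO1 is a sterol enzyme that rose by 1.42 on the log2 scale in each line, SREBF2 encodes the sterol transcription factor, and ELOVL6 had the largest fall among the sterol and fatty acid synthesis enzymes.
INSIG1, chr7:155297628-155297927, plus strand: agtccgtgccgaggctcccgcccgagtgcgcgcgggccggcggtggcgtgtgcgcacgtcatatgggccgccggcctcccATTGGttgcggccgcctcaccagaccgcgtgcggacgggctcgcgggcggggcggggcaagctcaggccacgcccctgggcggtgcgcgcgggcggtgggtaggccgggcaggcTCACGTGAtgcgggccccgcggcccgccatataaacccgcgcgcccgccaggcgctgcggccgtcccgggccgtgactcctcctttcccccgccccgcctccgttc
TM7SF2, chr11:65111622-65111921, plus strand: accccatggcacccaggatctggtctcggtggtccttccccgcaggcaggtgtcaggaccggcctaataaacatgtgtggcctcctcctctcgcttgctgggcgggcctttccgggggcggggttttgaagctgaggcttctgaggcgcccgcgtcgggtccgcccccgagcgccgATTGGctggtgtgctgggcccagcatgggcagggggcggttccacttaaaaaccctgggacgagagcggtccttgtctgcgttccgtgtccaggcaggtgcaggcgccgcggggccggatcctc
MSMO1, chr4:165327419-165327718, plus strand: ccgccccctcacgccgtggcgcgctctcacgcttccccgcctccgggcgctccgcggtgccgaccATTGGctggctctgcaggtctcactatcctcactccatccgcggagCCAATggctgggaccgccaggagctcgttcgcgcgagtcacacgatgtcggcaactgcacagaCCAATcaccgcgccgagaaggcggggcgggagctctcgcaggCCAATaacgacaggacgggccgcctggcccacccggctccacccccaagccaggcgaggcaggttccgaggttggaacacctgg
SREBF2, chr22:41832855-41833154, plus strand: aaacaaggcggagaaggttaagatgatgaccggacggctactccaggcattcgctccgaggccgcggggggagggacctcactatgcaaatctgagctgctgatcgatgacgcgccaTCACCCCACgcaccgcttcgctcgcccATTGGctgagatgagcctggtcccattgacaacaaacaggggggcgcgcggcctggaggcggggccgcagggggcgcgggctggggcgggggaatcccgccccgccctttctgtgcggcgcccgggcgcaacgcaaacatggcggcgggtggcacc
ELOVL6, chr4:110198566-110198865, minus strand: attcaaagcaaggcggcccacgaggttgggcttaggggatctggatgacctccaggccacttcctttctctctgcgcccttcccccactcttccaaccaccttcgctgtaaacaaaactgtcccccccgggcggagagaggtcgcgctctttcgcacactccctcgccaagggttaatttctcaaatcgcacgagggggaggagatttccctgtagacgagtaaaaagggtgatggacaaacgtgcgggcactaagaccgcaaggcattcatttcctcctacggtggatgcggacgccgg

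The INSIG1 window held TCACGTGA starting at -56 and the SREBF2 window held TCACCCCAC starting at -133, where -1 is the base before the start. MSMO1 had 4 CCAAT boxes, TM7SF2, INSIG1 and SREBF2 had 1 each, and the ELOVL6 window matched none of the 5 patterns. Of the 36 listed genes, 31 had a promoter in the table. A CCAAT box was found for 22 of these 31 and for 13 of the 15 sterol enzymes with a promoter, against 34.6% of all 35116 promoters in the table. It was found for 5 of 7 fatty acid enzymes and 3 of 6 genes of sterol sensing and transport. The other patterns were rare. TCACNCCAC occurred for 1 member (SREBF2) and in 1.13% of all promoters. TCACNCNAC occurred for 4 members (FDPS, HSD17B7, SREBF2 and FADS2) and in 2.55% of all promoters. TCACGTGA occurred for 1 member (INSIG1) and in 0.98% of all promoters, and CACGTG occurred for 5 members (LSS, SC5D, INSIG1, SCAP and ABCA1) and in 7.26% of all promoters. A member with several annotated starts was counted where any start matched, while the shares of all promoters count each start, so the 2 kinds of share are not strictly comparable, and no test was made.

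The precursor is listed in RefSeq as MIR371A and yields 2 mature arms. Capitals mark the seed, bases 2 to 8, by which a microRNA pairs with its targets. The arrays did not measure the microRNA itself.
hsa-miR-371a-3p, chr19:53787716-53787738, plus strand: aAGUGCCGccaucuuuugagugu
hsa-miR-371a-5p, chr19:53787680-53787699, plus strand: aCUCAAACugugggggcacu

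Array medians lay between 4.31 and 4.41, and the mean correlation between the arrays of a group lay between 0.996 and 0.997. Upper quartiles with DMSO were 6.74, 6.74 and 6.72 in the pre-miR-371 line and 6.92, 6.81 and 6.77 in the GFP vector line. Genes that report ERK output, which EGFR drives, fell with erlotinib in both lines (8 of 8 in each), with DUSP6 at 3.20, 4.04 and 3.51 on the erlotinib arrays of the pre-miR-371 line, against 9.44, 9.63 and 9.66 on its DMSO arrays. The 5 epithelial markers measured (CDH1, EPCAM, KRT8, KRT18 and KRT19) had group means between 10.71 and 13.66. The 5 leukocyte markers and the 6 adipocyte and hepatocyte markers had group means of at most 5.59 and 5.55, and 1 of 6 fibroblast markers, COL1A1, had a group mean over 6 (7.07 at most). With erlotinib, the pre-miR-371 line had 3 epithelial markers called higher and 1 called lower and the GFP vector line had 2 and 3, all under a fold of 1.5. LYZ and PLIN1 were higher in both lines and APOA1 was lower in the GFP vector line. The part of these markers in the results below was not tested.

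Among the members, erlotinib raised most of the sterol genes in both lines, while the fatty acid enzymes divided. A gene was called at a Benjamini-Hochberg adjusted p under 0.05 in limma, with adjustment over all 19775 genes. In the pre-miR-371 line, 19 of the 32 members were higher and 4 lower with erlotinib, where 24.8% of all genes were called higher and 22.2% lower. In the GFP vector line, 21 members were higher and 5 lower, where 26.5% of all genes were called higher and 23.4% lower. The 2 comparisons shared no array, and 18 members were called higher in both, 94.7% of those of the pre-miR-371 line and 85.7% of those of the GFP vector line. The 4 members called lower in both were LPIN1, ELOVL6, FASN and ACLY. With a fold over 1.5 as well, the pre-miR-371 line had 11 members higher and 3 lower, against 12.6% and 9.33% of all genes, and 11 were higher and 4 lower in the GFP vector line, against 14.1% and 11.7% of all genes. All 3 erlotinib arrays lay above all 3 DMSO arrays for 21 members in the pre-miR-371 line (28.1% of all genes) and for 22 in the GFP vector line (28.5%), and all lay below for 6 members in each line (27.8% and 25.7% of all genes). These are RNA values of whole cultures, in which a change in the makeup of the culture and a change in RNA per cell cannot be told apart.

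**Figure D1:**
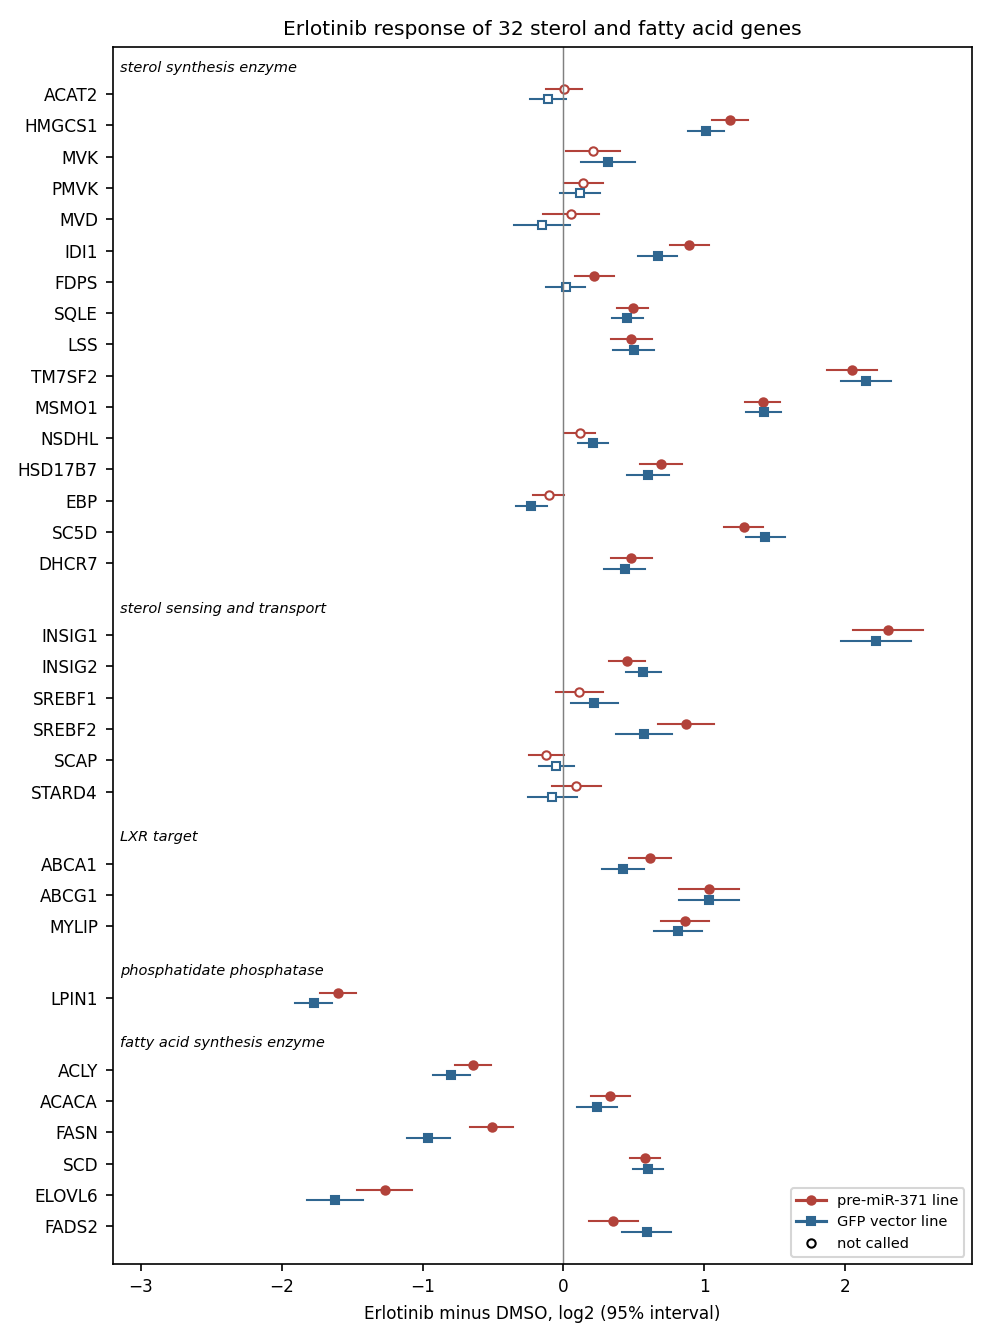
Erlotinib minus DMSO on the log2 scale for the 32 members measured, grouped by role, in the pre-miR-371 line (red circles, upper) and the GFP vector line (blue squares, lower). Horizontal bars are 95% intervals from the limma fit and open symbols were not called. INSIG1 and TM7SF2 lie beyond 2 in both lines, and LPIN1 and ELOVL6 lie beyond -1 in both.

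Among the enzymes of sterol synthesis, 10 of 16 were higher and the other 6 not called in the pre-miR-371 line, and 11 were higher, 1 was lower and 4 were not called in the GFP vector line. Their median log2 change was 0.48 in the pre-miR-371 line and 0.44 in the GFP vector line, where the medians over all genes were -0.03 and 0.0029. The 6 fatty acid enzymes had medians of -0.09 and -0.28 in the same lines, values that lie between the 3 that fell and the 3 that rose. Sterol enzymes therefore lay above the fatty acid enzymes in the erlotinib response of both lines, by median only. SCD, FADS2 and ACACA rose in both lines, and EBP fell in the GFP vector line. With the mean of every probe set of a gene in place of the brightest one, the medians were 0.29 and 0.22 for sterol enzymes and -0.33 and -0.36 for fatty acid enzymes.

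TM7SF2, which reduces the C14 double bond of sterol intermediates, rose most among the sterol enzymes. Its log2 values were 8.82, 8.82 and 8.58 on the erlotinib arrays of the pre-miR-371 line, against 6.71, 6.59 and 6.78 on its DMSO arrays. In the GFP vector line they were 8.76, 8.93 and 8.84 with erlotinib, against 6.69, 6.76 and 6.65 with DMSO. The erlotinib and DMSO arrays were thus far apart in both lines, 4.13-fold in the pre-miR-371 line (log2 change 2.05, SE 0.08, limma adjusted p = 1.05e-09) and 4.43-fold in the GFP vector line (log2 change 2.15, SE 0.08, adjusted p = 5.11e-10). LBR, a nuclear envelope protein with the same reductase activity, moved the other way and is described below with the genes outside the list.

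MSMO1, the C4-methylsterol oxidase, had values of 10.66, 10.72 and 10.74 with erlotinib, against 9.23, 9.35 and 9.30 with DMSO, in the pre-miR-371 line. Its values in the GFP vector line were 10.65, 10.57 and 10.53 with erlotinib, against 9.17, 9.20 and 9.11 with DMSO. The rise was 2.67-fold and 2.68-fold (log2 change 1.42 in each, SE 0.06, adjusted p = 1.37e-09 and 9.31e-10). SC5D, the lathosterol desaturase near the end of the pathway, had values of 9.77, 9.78 and 9.73 with erlotinib, against 8.40, 8.54 and 8.50 with DMSO, in the pre-miR-371 line. In the GFP vector line it had 9.79, 9.75 and 9.84 with erlotinib, against 8.46, 8.28 and 8.34 with DMSO. SC5D rose 2.43-fold in the pre-miR-371 line (adjusted p = 6.21e-09) and 2.70-fold in the GFP vector line (adjusted p = 1.7e-09).

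Upstream of squalene, HMGCS1, the cytosolic HMG-CoA synthase, rose in both lines. Its values were 8.79, 8.86 and 8.85 with erlotinib, against 7.58, 7.65 and 7.73 with DMSO, in the pre-miR-371 line. They were 8.75, 8.75 and 8.67 with erlotinib, against 7.77, 7.68 and 7.68 with DMSO, in the GFP vector line. These are rises of 2.27-fold (log2 change 1.18, SE 0.06, adjusted p = 7.02e-09) and 2.02-fold (log2 change 1.01, SE 0.06, adjusted p = 1.87e-08). IDI1, the isopentenyl-diphosphate isomerase, had 9.47, 9.44 and 9.36 with erlotinib, against 8.63, 8.48 and 8.48 with DMSO, in the pre-miR-371 line. IDI1 in the GFP vector line had 9.42, 9.39 and 9.42 with erlotinib, against 8.82, 8.66 and 8.73 with DMSO. The erlotinib arrays of the 2 lines overlapped for IDI1, and the rises were 1.86-fold (adjusted p = 1.53e-07) and 1.59-fold (adjusted p = 1.6e-06). HSD17B7, the 3-ketosteroid reductase of the pathway, had 8.97, 8.98 and 8.96 with erlotinib, against 8.15, 8.31 and 8.37 with DMSO, in the pre-miR-371 line. HSD17B7 in the GFP vector line had 9.0, 8.97 and 8.96 with erlotinib, against 8.48, 8.34 and 8.31 with DMSO. The HSD17B7 rises were 1.62-fold (adjusted p = 2.33e-06) and 1.52-fold (adjusted p = 6.92e-06). The probe sets used for IDI1 and HSD17B7 are of the kind that the array maker marks as open to cross-hybridization. IDI1 was not called with its brightest set free of such marks (adjusted p = 0.0815 in the pre-miR-371 line and 0.0811 in the GFP vector line). That set had a mean of only 3.67 and a log2 change of 0.35 in each line.

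Smaller rises in both lines were measured for LSS, SQLE and DHCR7, which encode lanosterol synthase, squalene epoxidase and the last reductase of cholesterol synthesis. Their log2 changes lay between 0.48 and 0.49 in the pre-miR-371 line and between 0.43 and 0.50 in the GFP vector line, all called and all under a fold of 1.5. With the mean of every probe set the call of LSS was lost in the pre-miR-371 line (log2 change 0.13, adjusted p = 0.0771) and that of SQLE in the GFP vector line (log2 change 0.17, adjusted p = 0.0686). FDPS, the farnesyl diphosphate synthase, was called only in the pre-miR-371 line, at a log2 change of 0.22 (adjusted p = 0.0123), against 0.02 in the GFP vector line (adjusted p = 0.863). That call was lost without replicate 1 of its DMSO arrays (adjusted p = 0.0516) or replicate 2 of its erlotinib arrays (adjusted p = 0.056). MVK (mevalonate kinase) and NSDHL (a C4-decarboxylating sterol dehydrogenase) were called only in the GFP vector line. MVK had log2 changes of 0.21 in the pre-miR-371 line and 0.32 in the GFP vector line, and NSDHL had 0.12 and 0.21. MVK was also called in the pre-miR-371 line in the fit of only the groups compared (adjusted p = 0.0177) and with the mean of its probe sets (adjusted p = 0.00901). Leaving out replicate 1 or 3 of the GFP vector DMSO arrays brought MVK under the threshold in the pre-miR-371 line too (adjusted p = 0.0107 and 0.0464). EBP, the sterol isomerase, was the 1 sterol enzyme called lower, by 0.23 in the GFP vector line (adjusted p = 0.00188), with -0.10 in the pre-miR-371 line (adjusted p = 0.114). None of these differences between the lines was itself called, as given below. ACAT2 (acetyl-CoA acetyltransferase), PMVK (phosphomevalonate kinase) and MVD (diphosphomevalonate decarboxylase), which stand early in the pathway, were called in neither line. Over the 6 members not called in the GFP vector line the 95% intervals ran from -0.35 to 0.26, and over the 9 not called in the pre-miR-371 line from -0.25 to 0.40. ACAT2 was called lower in the GFP vector line without replicate 3 of its DMSO arrays (adjusted p = 0.0462), and PMVK was called higher in the pre-miR-371 line without replicate 3 of its erlotinib arrays (adjusted p = 0.0133).

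Among the genes that sense sterol, INSIG1, the SREBP-induced brake on the pathway, rose most of all members. It had 8.66, 8.69 and 8.72 with erlotinib, against 6.24, 6.36 and 6.56 with DMSO, in the pre-miR-371 line. It had 8.80, 8.56 and 8.56 with erlotinib, against 6.67, 6.31 and 6.28 with DMSO, in the GFP vector line. These are rises of 4.94-fold (log2 change 2.30, SE 0.11, adjusted p = 6.79e-09) and 4.67-fold (log2 change 2.22, SE 0.11, adjusted p = 6.33e-09). INSIG2, a related protein that also retains SCAP, rose less. It had 9.95, 10.08 and 9.93 with erlotinib, against 9.53, 9.53 and 9.55 with DMSO, in the pre-miR-371 line. In the GFP vector line it had 10.32, 10.35 and 10.25 with erlotinib, against 9.78, 9.72 and 9.72 with DMSO. Its log2 changes were 0.45 (adjusted p = 2.6e-05) and 0.57 (adjusted p = 2.87e-06).

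SREBF2 rose in both lines, and its erlotinib and DMSO arrays did not overlap within either line. It had 7.72, 7.57 and 7.46 with erlotinib, against 6.66, 6.71 and 6.77 with DMSO, in the pre-miR-371 line. It had 7.66, 7.50 and 7.61 with erlotinib, against 6.99, 7.19 and 6.86 with DMSO, in the GFP vector line. The rise was 1.82-fold (log2 change 0.87, SE 0.09, adjusted p = 5.01e-06) and 1.49-fold (log2 change 0.58, SE 0.09, adjusted p = 0.000155). SREBF1 moved little. It had 8.05, 8.0 and 7.95 with erlotinib, against 7.98, 7.77 and 7.92 with DMSO, in the pre-miR-371 line, where the groups overlapped (log2 change 0.11, adjusted p = 0.265). In the GFP vector line SREBF1 had 8.25, 8.25 and 8.16 with erlotinib, against 8.14, 7.89 and 7.98 with DMSO (log2 change 0.22, adjusted p = 0.031). That call was lost without replicate 2 or 3 of the DMSO arrays (adjusted p = 0.134 and 0.0786) and without replicate 1 or 2 of the erlotinib arrays (adjusted p = 0.0854 and 0.081).

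SCAP, the escort protein, was called in neither line. It had 8.34, 8.33 and 8.25 with erlotinib, against 8.41, 8.47 and 8.40 with DMSO, in the pre-miR-371 line, and 8.45, 8.47 and 8.49 with erlotinib, against 8.60, 8.52 and 8.45 with DMSO, in the GFP vector line. STARD4, a carrier of cholesterol between membranes, had 2.93, 2.85 and 2.69 with erlotinib, against 2.73, 2.61 and 2.86 with DMSO, in the pre-miR-371 line, and 2.69, 2.79 and 2.68 with erlotinib, against 2.84, 2.83 and 2.73 with DMSO, in the GFP vector line. These low values came with no detection call in the files, so a change of STARD4 cannot be read from them.

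**Figure D2:**
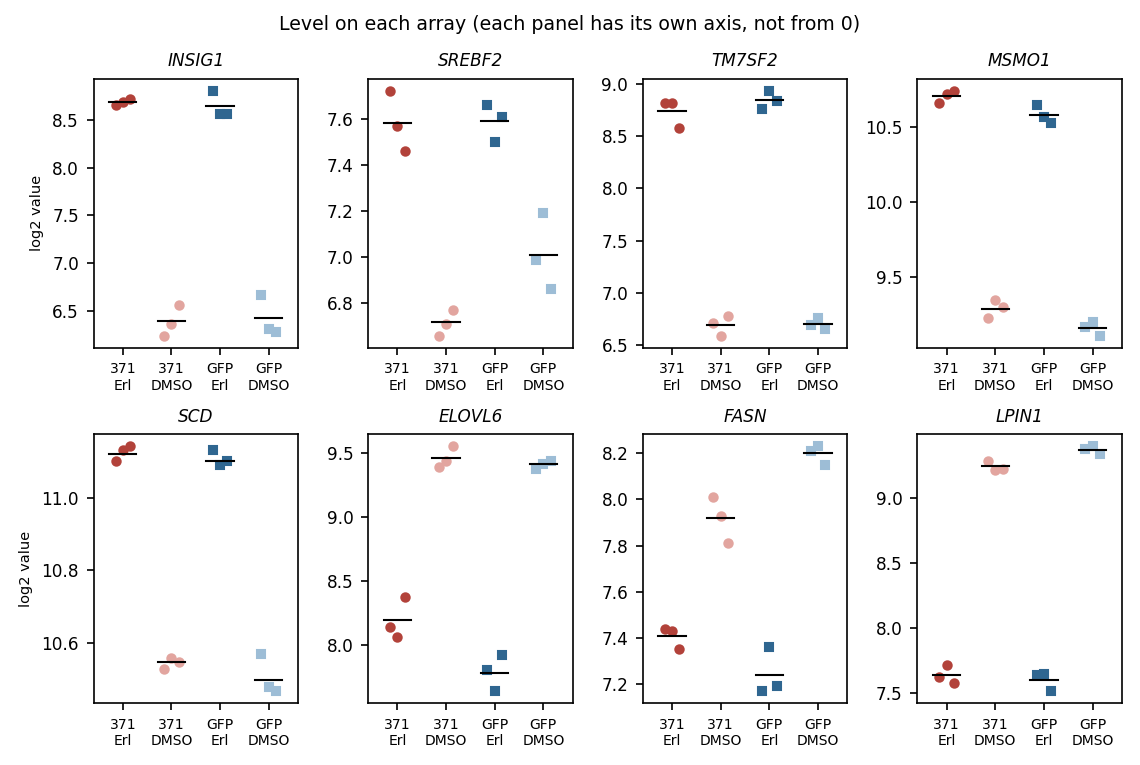
Log2 values of 8 members on each of the 12 arrays, with erlotinib to the left of DMSO in each line and the pre-miR-371 line (circles) to the left of the GFP vector line (squares). Points are arrays and bars are group means of 3. INSIG1, SREBF2, TM7SF2, MSMO1 and SCD are higher on all erlotinib arrays of a line than on its DMSO arrays, and ELOVL6, FASN and LPIN1 are lower.

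The 3 genes listed in the LXR role rose in both lines, where 24.8% and 26.5% of all genes were called higher. Members listed in other roles were not counted as LXR targets here. ABCA1, which exports cholesterol to lipid-poor apolipoprotein, had 9.14, 9.08 and 9.07 with erlotinib, against 8.47, 8.43 and 8.54 with DMSO, in the pre-miR-371 line. It had 8.74, 8.80 and 8.98 with erlotinib, against 8.48, 8.36 and 8.42 with DMSO, in the GFP vector line, for log2 changes of 0.62 (adjusted p = 8.76e-06) and 0.42 (adjusted p = 0.000199). ABCG1, which passes sterol to high-density lipoprotein, had a mean under 6 over all arrays and rose 2.05-fold in each line (adjusted p = 1.77e-06 and 1.44e-06). ABCG1 had 5.89, 5.77 and 5.90 with erlotinib, against 4.77, 4.76 and 4.93 with DMSO, in the pre-miR-371 line, and 5.39, 5.33 and 5.38 with erlotinib, against 4.59, 4.23 and 4.18 with DMSO, in the GFP vector line. MYLIP, the ubiquitin ligase that removes lipoprotein receptors from the cell surface, had 8.73, 8.67 and 8.80 with erlotinib, against 7.93, 7.70 and 7.99 with DMSO, in the pre-miR-371 line. It had 8.72, 8.70 and 8.63 with erlotinib, against 7.92, 7.78 and 7.90 with DMSO, in the GFP vector line, for rises of 1.82-fold (adjusted p = 1.23e-06) and 1.76-fold (adjusted p = 1.7e-06). The MYLIP call was lost in both lines when its set, which is shared by several transcripts, was replaced by the brightest one that is not (adjusted p = 0.156 and 0.16), at a mean of only 4.79. The other 3 MYLIP sets with a mean over 6 were called higher in both lines. The sterol exporters ABCA1 and ABCG1 and most of the sterol synthesis enzymes measured were therefore higher together with the drug.

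LPIN1, whose product makes diacylglycerol from phosphatidate, fell the most of all members. It had 7.63, 7.72 and 7.58 with erlotinib, against 9.29, 9.22 and 9.23 with DMSO, in the pre-miR-371 line. It had 7.64, 7.65 and 7.52 with erlotinib, against 9.38, 9.40 and 9.34 with DMSO, in the GFP vector line. LPIN1 was thus 3.04-fold lower (log2 change -1.60, SE 0.06, adjusted p = 5.81e-10) and 3.42-fold lower (log2 change -1.77, SE 0.06, adjusted p = 1.71e-10), and all 3 of its probe sets were called lower in both lines.

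The fatty acid enzymes divided into 3 that fell and 3 that rose in both lines. ELOVL6, which lengthens palmitate to stearate, fell most. It had 8.14, 8.06 and 8.37 with erlotinib, against 9.39, 9.44 and 9.55 with DMSO, in the pre-miR-371 line, and 7.80, 7.64 and 7.92 with erlotinib, against 9.37, 9.41 and 9.44 with DMSO, in the GFP vector line. The fall was 2.41-fold (log2 change -1.27, SE 0.09, adjusted p = 1.55e-07) and 3.08-fold (log2 change -1.62, SE 0.09, adjusted p = 1.31e-08). FASN, the fatty acid synthase, had 7.44, 7.43 and 7.35 with erlotinib, against 8.01, 7.93 and 7.81 with DMSO, in the pre-miR-371 line. FASN in the GFP vector line had 7.17, 7.36 and 7.19 with erlotinib, against 8.21, 8.23 and 8.15 with DMSO. Its log2 changes were -0.51 (SE 0.07, adjusted p = 4.94e-05) and -0.96 (SE 0.07, adjusted p = 1.39e-07). ACLY, the citrate lyase that supplies acetyl-CoA to both pathways, had 10.27, 10.23 and 10.33 with erlotinib, against 10.92, 10.92 and 10.92 with DMSO, in the pre-miR-371 line, and 10.23, 10.19 and 10.17 with erlotinib, against 11.09, 10.99 and 10.90 with DMSO, in the GFP vector line. ACLY fell 1.56-fold (adjusted p = 1.59e-06) and 1.74-fold (adjusted p = 1.75e-07). All 3 probe sets of ELOVL6 and all 3 of ACLY were called lower in both lines, while the second probe set of FASN, of a kind open to cross-hybridization, was called in neither line (log2 change -0.33 in the pre-miR-371 line and 0.10 in the GFP vector line).

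SCD, the desaturase that makes oleate, was higher with erlotinib. It had 11.10, 11.13 and 11.14 with erlotinib, against 10.53, 10.56 and 10.55 with DMSO, in the pre-miR-371 line, and 11.13, 11.09 and 11.10 with erlotinib, against 10.57, 10.48 and 10.47 with DMSO, in the GFP vector line. The rise was 1.49-fold (log2 change 0.58, adjusted p = 8.16e-07) and 1.51-fold (log2 change 0.60, adjusted p = 4.69e-07). FADS2, the desaturase of polyunsaturated fatty acids, had 6.53, 6.55 and 6.45 with erlotinib, against 6.22, 6.27 and 5.98 with DMSO, in the pre-miR-371 line, and 6.82, 6.67 and 6.72 with erlotinib, against 6.17, 6.19 and 6.07 with DMSO, in the GFP vector line. FADS2 rose by 0.35 (adjusted p = 0.00252) and 0.59 (adjusted p = 3.91e-05). ACACA, the acetyl-CoA carboxylase of the cytosol, had 9.45, 9.40 and 9.31 with erlotinib, against 9.12, 9.04 and 8.99 with DMSO, in the pre-miR-371 line, and 9.51, 9.43 and 9.37 with erlotinib, against 9.26, 9.16 and 9.16 with DMSO, in the GFP vector line. Its log2 changes were 0.33 (adjusted p = 0.000829) and 0.24 (adjusted p = 0.00721).

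These 3 rises were called only with the probe set used. The second probe set of ACACA, at a mean of 5.33 against 9.27 for the set used, was called lower in both lines (log2 change -0.80 in each, adjusted p = 0.00032 and 0.00027). The other 3 probe sets of SCD had log2 changes between -0.19 and 0.04 in the pre-miR-371 line and between -0.39 and 0.01 in the GFP vector line, and 1 of them was called lower in the GFP vector line (adjusted p = 0.00132). The second FADS2 set, at a mean of only 3.84, had -0.24 and -0.28 and was not called. With the mean of every probe set of a gene, 0 of 6 fatty acid enzymes were called higher in either line. The falls of ELOVL6, FASN and ACLY remained called that way in both lines.

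Over all members called in a line and having further probe sets whose mean log2 value reached 6, 16 of 17 such sets in the pre-miR-371 line and 15 of 20 in the GFP vector line were called the same way as the set used. Among sets with a mean under 6, 4 of 21 and 4 of 26 were called the same way and 1 and 2 the other way, namely the sets of ACACA and SCD just described. For SC5D the second set, at a mean of 2.80, was called in neither line (log2 change 0.12 in the pre-miR-371 line and -0.10 in the GFP vector line). HMGCS1 had a second set at a mean of 7.99 with a smaller log2 change, 0.33 in the pre-miR-371 line (adjusted p = 0.00859) and 0.23 in the GFP vector line (adjusted p = 0.0502).

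**Figure D3:**
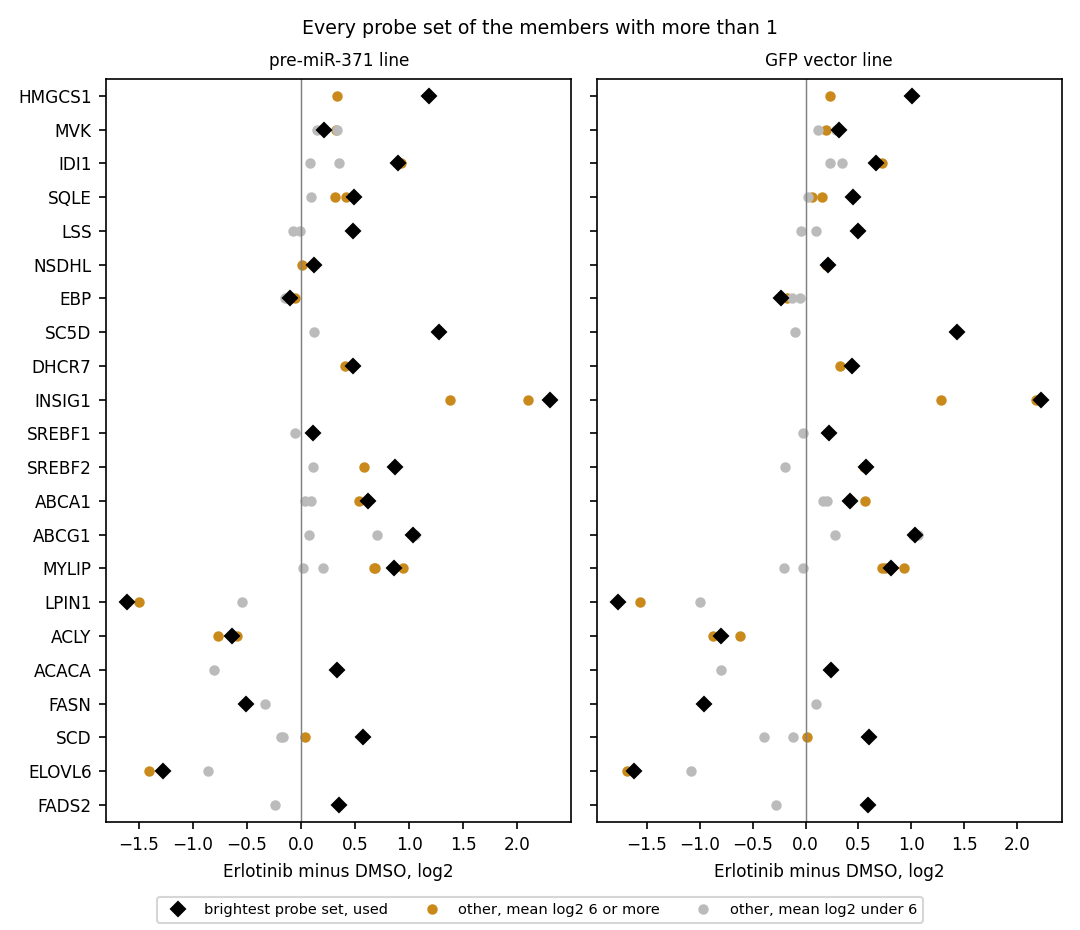
Erlotinib minus DMSO on the log2 scale for every probe set of the 22 members with more than 1, in the pre-miR-371 line (left) and the GFP vector line (right). Black diamonds are the sets used, orange circles other sets whose mean log2 value reached 6 and grey circles sets under 6. The sets of ELOVL6, ACLY and LPIN1 all lie left of 0, while those of SCD and ACACA lie on both sides.

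Other genes of both pathways were taken from lists chosen by function. Of 20 further sterol genes measured, 8 were higher and 4 lower in each line, where 24.8% and 26.5% of all genes were higher and 22.2% and 23.4% lower. Their median log2 changes were near 0, at 0.02 in the pre-miR-371 line and 0.0022 in the GFP vector line. ERG28, whose yeast counterpart holds the C4-demethylation enzymes together, rose 2.32-fold in the pre-miR-371 line and 2.44-fold in the GFP vector line (adjusted p = 1.83e-09 and 8.41e-10). MBTPS1, the protease that makes the first cut in SREBPs, rose 1.79-fold and 2.03-fold, and ERLIN2, which takes part in sterol-dependent degradation at the endoplasmic reticulum, rose by 0.90 and 1.00 on the log2 scale. LBR, SCARB1 (a receptor for high-density lipoprotein) and TMEM97 (a partner of the lysosomal sterol transporter) had the largest falls. LBR had 9.93, 9.88 and 10.00 with erlotinib, against 10.88, 10.92 and 10.88 with DMSO, in the pre-miR-371 line, and 9.40, 9.43 and 9.55 with erlotinib, against 10.88, 10.81 and 10.79 with DMSO, in the GFP vector line. The 2 genes with C14 reductase activity therefore moved in opposite directions, LBR by -0.96 and -1.37 and TM7SF2 by 2.05 and 2.15. SCARB1 fell by 1.00 and 1.09, and TMEM97 fell by 0.67 and 0.91.

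Of 25 further fatty acid genes, the pre-miR-371 line had 7 higher and 6 lower and the GFP vector line 8 higher and 6 lower, with medians of 0.09 and 0.06. These counts lie near the shares over all genes just given. SCD5, a second stearoyl-CoA desaturase, rose 3.50-fold in the pre-miR-371 line and 3.13-fold in the GFP vector line (adjusted p = 1.55e-10 and 2.23e-10). FADS3, of the desaturase family, rose by 1.18 and 1.23, and AGPAT2, an acyltransferase of phosphatidate synthesis, rose by 1.08 and 1.19. The acyl-CoA synthetases ACSL4 and ACSL5 fell by 0.90 and 1.33 and by 1.02 and 0.87, and GPAM, the mitochondrial acyltransferase that starts glycerolipid synthesis, fell by 0.45 and 0.74. Genes of fatty acid oxidation were more uniform, with 11 of 13 higher in the pre-miR-371 line, 10 of 13 higher in the GFP vector line and the others not called. Their median log2 changes were 0.37 and 0.66, against -0.03 and 0.0029 over all genes. PPARA, a nuclear receptor that promotes fatty acid oxidation, rose 2.29-fold and 2.21-fold, HADHB, of the mitochondrial trifunctional protein, rose 1.64-fold and 1.92-fold, and ETFDH, which passes electrons from oxidation to the respiratory chain, rose 1.48-fold and 1.86-fold.

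**Figure D4:**
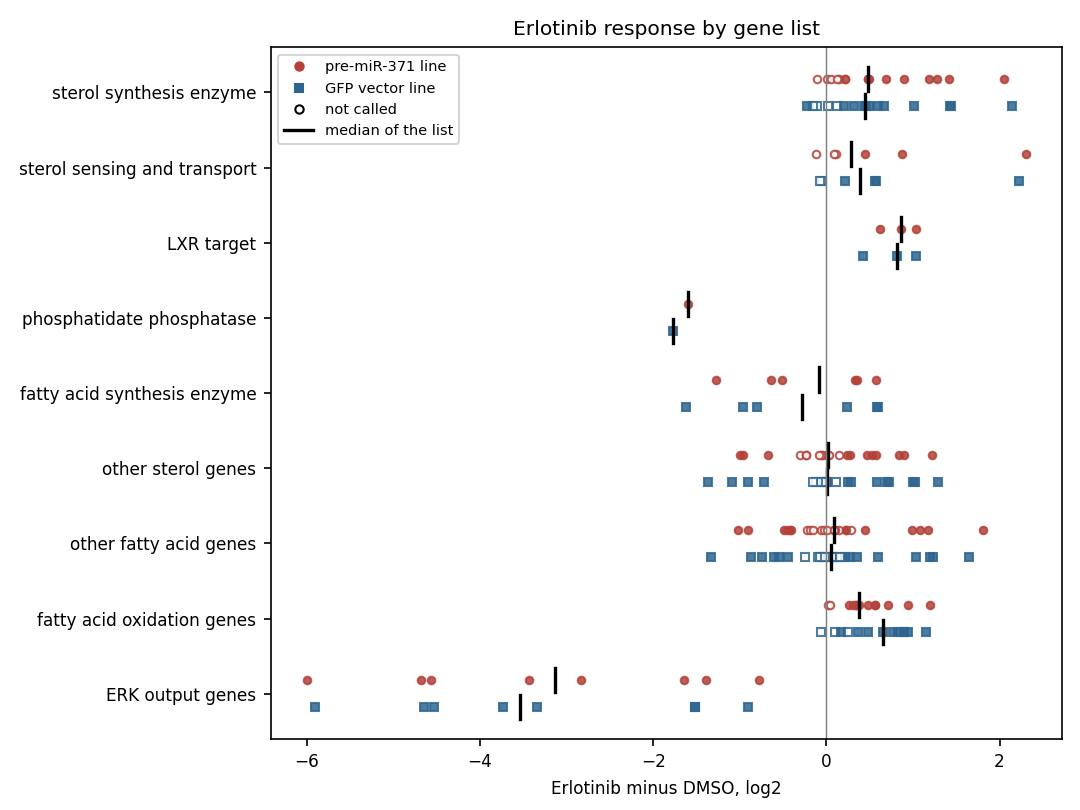
Erlotinib minus DMSO on the log2 scale for every gene of the 5 roles and of 4 further lists, in the pre-miR-371 line (red circles, upper) and the GFP vector line (blue squares, lower). Black ticks are list medians and open symbols were not called. Sterol enzymes, LXR targets and oxidation genes lie mostly right of 0, fatty acid enzymes on both sides, and the 8 ERK output genes left of 0.

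The lines themselves differed little in these genes. With DMSO, 1 of 32 members was higher and 4 were lower when the pre-miR-371 line was set against the GFP vector line, where 1.62% of all genes were called higher and 3.64% lower. With erlotinib, 5 were higher and 3 lower, where 6.50% of all genes were called higher and 9.46% lower. Every one of these differences was under a fold of 1.5. The 2 comparisons of the lines use the same arrays as the erlotinib comparisons. Not called were 27 members with DMSO and 24 with erlotinib, with 95% intervals from -0.50 to 0.45 and from -0.40 to 0.35.

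ABCG1 was higher in the pre-miR-371 line in both conditions, by 0.49 with erlotinib (adjusted p = 0.00636) and by 0.49 with DMSO (adjusted p = 0.0174), and the arrays given above did not overlap between the lines. ABCG1 was not called in either condition with a probe set of another kind (log2 difference -0.11 with erlotinib and -0.10 with DMSO) or with the mean of its probe sets (0.07, adjusted p = 0.643, with erlotinib and 0.20, adjusted p = 0.175, with DMSO). The DMSO call was lost without replicate 2 of the GFP vector arrays (adjusted p = 0.0665) or replicate 3 of the pre-miR-371 arrays (adjusted p = 0.0781). NSDHL was lower in both conditions. It had 9.26, 9.27 and 9.36 in the pre-miR-371 line, against 9.64, 9.63 and 9.62 in the GFP vector line, with erlotinib, and 9.17, 9.19 and 9.18, against 9.40, 9.42 and 9.43, with DMSO. The log2 differences were -0.33 (SE 0.05, adjusted p = 0.00142) and -0.24 (SE 0.05, adjusted p = 0.02). The second of these was lost without replicate 2 of the GFP vector DMSO arrays (adjusted p = 0.0669) or without any of the 3 pre-miR-371 DMSO arrays (adjusted p from 0.0641 to 0.0712). PMVK was lower in both conditions as well, with 8.36, 8.31 and 8.14 in the pre-miR-371 line, against 8.49, 8.50 and 8.55 in the GFP vector line, with erlotinib, and 8.15, 8.06 and 8.17, against 8.39, 8.37 and 8.42, with DMSO. Its log2 differences were -0.24 (adjusted p = 0.0268) and -0.26 (adjusted p = 0.0381).

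Called with erlotinib only were INSIG2, lower in the pre-miR-371 line by 0.32 (adjusted p = 0.00403), and ACAT2, FDPS, ABCA1 and ELOVL6, which were higher. With DMSO the INSIG2 arrays of the lines did not overlap either, at a log2 difference of -0.20 that was not called (adjusted p = 0.0647). ACAT2 had 9.83, 9.89 and 9.90 in the pre-miR-371 line, against 9.61, 9.51 and 9.60 in the GFP vector line, with erlotinib (log2 difference 0.30, adjusted p = 0.00674), and 9.86, 9.90 and 9.83, against 9.75, 9.71 and 9.58, with DMSO (log2 difference 0.18, adjusted p = 0.098). FDPS had 11.26, 11.39 and 11.31, against 11.13, 11.06 and 11.12, with erlotinib (log2 difference 0.22, adjusted p = 0.0383), and 11.05, 11.12 and 11.13, against 11.19, 11.08 and 10.99, with DMSO, where the lines overlapped. ELOVL6 differed by 0.40 (adjusted p = 0.0118), or by 0.06 with the mean of its probe sets (adjusted p = 0.647). Its probe sets disagreed when every probe set was tested in limma. The set with a mean of 5.56 was called lower, by log2 differences of -0.53 with erlotinib (adjusted p = 0.0167) and -0.75 with DMSO (adjusted p = 0.00788). The set with a mean of 6.95 was not called with erlotinib (0.29, adjusted p = 0.067). ABCA1 differed by 0.26 (adjusted p = 0.0269), or by 0.0014 with the mean of its probe sets (adjusted p = 0.992). With DMSO only, MVD was called lower, with 5.80, 5.74 and 5.86 in the pre-miR-371 line, against 6.13, 6.18 and 6.16 in the GFP vector line (log2 difference -0.35, adjusted p = 0.0459). With erlotinib MVD had 6.10, 5.70 and 5.77, against 5.93, 6.04 and 6.04 (log2 difference -0.15, adjusted p = 0.306). FASN was lower with DMSO by 0.28 (adjusted p = 0.0406), or by 0.13 with the mean of its probe sets (adjusted p = 0.37). These calls near the threshold were fragile. Repeating the quantile normalization before limma ended the DMSO calls of PMVK (adjusted p = 0.159), MVD (0.0997), NSDHL (0.0808) and FASN (0.155). It also ended that of PMVK with erlotinib (0.0589), and it added calls of ACAT2 with DMSO (0.022) and FASN with erlotinib (0.0427). The calls of PMVK and MVD with DMSO were lost without any single one of the 6 DMSO arrays (adjusted p from 0.0635 to 0.14), and also without any GFP vector erlotinib array or 1 of the pre-miR-371 erlotinib arrays, replicate 2 for PMVK and replicate 3 for MVD (adjusted p from 0.0509 to 0.0622). That of FASN was lost without replicate 1 or 2 of the GFP vector DMSO arrays or replicate 2 or 3 of the pre-miR-371 DMSO arrays (adjusted p from 0.103 to 0.149), and without replicate 3 of the GFP vector erlotinib arrays or replicate 1 or 2 of the pre-miR-371 erlotinib arrays (adjusted p from 0.0526 to 0.0615). With erlotinib, PMVK lost its call without any of the GFP vector arrays or without replicate 2 or 3 of the pre-miR-371 arrays (adjusted p from 0.0511 to 0.0951), ABCA1 without replicate 1 or 2 of the GFP vector arrays or any pre-miR-371 array (adjusted p from 0.0616 to 0.0997), and FDPS without any of these 6 arrays except replicate 1 of the pre-miR-371 line (adjusted p from 0.0734 to 0.126) or without replicate 2 of the GFP vector DMSO arrays or replicate 2 or 3 of the pre-miR-371 DMSO arrays (adjusted p from 0.0515 to 0.0548). Leaving out 1 array also added calls, with DMSO for MVK and SREBF2 without replicate 3 of the GFP vector DMSO arrays (adjusted p = 0.0492 and 0.0384), and with erlotinib for SCAP and SREBF1 without replicate 1 of the same arrays (0.0481 and 0.0425), FADS2 without replicate 3 of the pre-miR-371 DMSO arrays (0.0373) and MVD without replicate 1 of the pre-miR-371 erlotinib arrays (0.0231). On the probe sets used, NSDHL, INSIG2, ACAT2, ABCG1 and ELOVL6 kept their calls with erlotinib without each of the 12 arrays in turn.

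**Figure D5:**
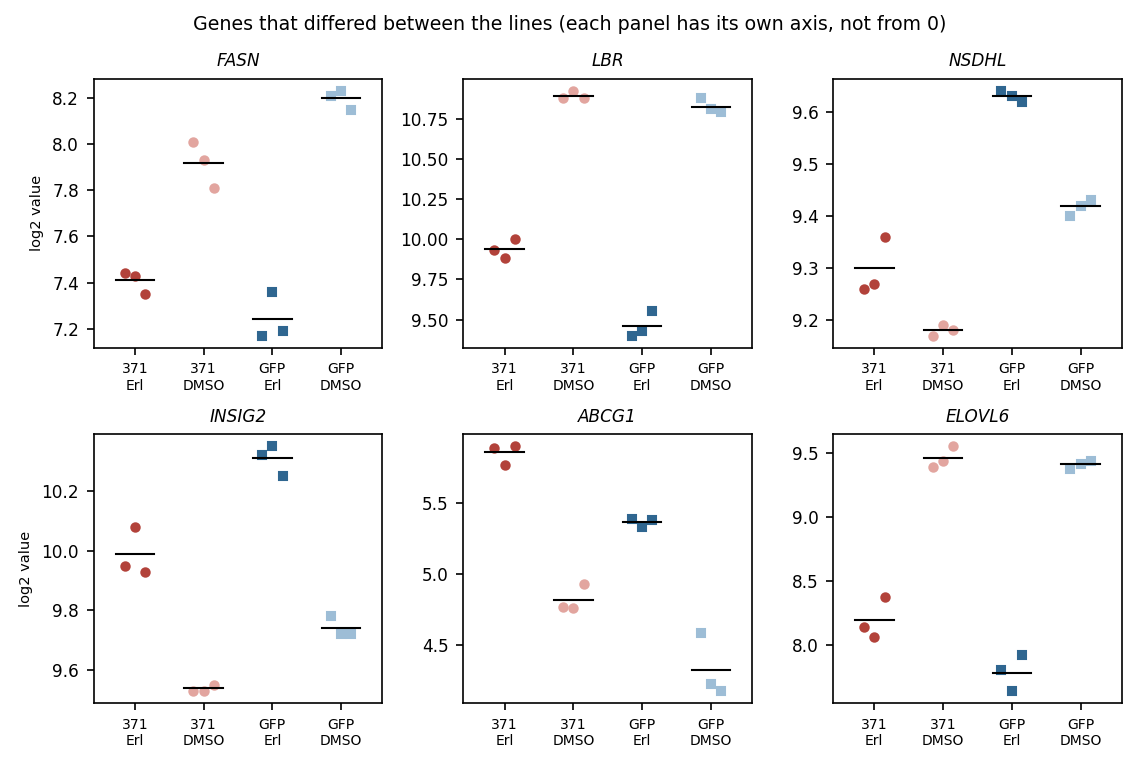
Log2 values of FASN, LBR, NSDHL, INSIG2, ABCG1 and ELOVL6 on each of the 12 arrays, with erlotinib to the left of DMSO in each line and the pre-miR-371 line (circles) to the left of the GFP vector line (squares). Points are arrays and bars are group means of 3. NSDHL and INSIG2 are lower and ABCG1 is higher on all pre-miR-371 arrays than on the GFP vector arrays of the same treatment, and FASN and LBR fall less with erlotinib in the pre-miR-371 line.

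Whether the erlotinib response differed between the lines was tested by the difference of the 2 responses. Of the 32 members, 1 had a called difference, above 0, where 1.44% of all genes were called above and 0.561% below. This member was FASN, which fell less in the pre-miR-371 line, by 0.45 on the log2 scale (SE 0.10, adjusted p = 0.041). At DMSO FASN was already 0.28 lower in that line, and with erlotinib the lines differed by 0.17 (adjusted p = 0.124). The FASN call was lost without each of 10 of the 12 arrays (adjusted p from 0.0513 to 0.101) and held without replicate 1 of the pre-miR-371 DMSO arrays or replicate 2 of the GFP vector erlotinib arrays. With the mean of both FASN probe sets the difference of the responses was 0.01 (adjusted p = 0.978). For the other 31 members the difference of the responses lay between -0.24 and 0.35, with 95% intervals from -0.48 to 0.63. SREBF2 and ELOVL6 were among the larger, at 0.29 (adjusted p = 0.311) and 0.35 (adjusted p = 0.214). Among the genes outside the list, LBR also fell less in the pre-miR-371 line, by 0.41 (SE 0.08, adjusted p = 0.032), a call lost without each of 10 of the 12 arrays (adjusted p from 0.0517 to 0.0808).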

How the data were processed

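RNA of 12 samples was hybridized to HG-U133 Plus 2.0 arrays. The deposited values are log2 expression values, which the authors normalized by quantiles. RMA and affy stand in the submitters' processing notes, without versions. Of 54675 probe sets, 41097 had 1 gene symbol, 1801 several and 11777 none. Each of the 19775 genes was measured by its brightest probe set, and low values were kept, since no detection calls were used here. A model with a mean for each of the 4 groups was fitted to all 12 arrays with limma 3.58.1 in R 4.3.3, and the p-values of all genes were adjusted together (Benjamini-Hochberg). The scripts were tested on simulated data. The genes and lists were chosen with earlier results of these data known. Values on every array were given for the sensing, LXR and fatty acid genes, LPIN1, the 6 sterol enzymes with the largest called changes and members called between the lines. Named outside the list were the 3 genes with the largest rises and falls in each further list in the GFP vector line. Alternatives were other probe set rules, filters, scalings, tests and fits, the t-test of the paper's general statistics and leaving out each array. RMA, which compresses low values, could make changes smaller than they were, and cross-hybridization could make them smaller or larger.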

Additional observations from a re-analysis of the deposited data

Results flagged for a closer look

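Among the genes of the lists and marker sets used here, 4 had erlotinib responses that differed between the lines by the limma test of the difference itself, with adjustment over all genes. Over all 19775 genes the difference was called above 0 for 284 (1.44%) and below 0 for 111 (0.561%). FASN fell by 0.51 in the pre-miR-371 line and by 0.96 in the GFP vector line, a difference of the responses of 0.45 (adjusted p = 0.041). LBR fell by 0.96 in the pre-miR-371 line and by 1.37 in the GFP vector line, a difference of 0.41 (adjusted p = 0.032). CDH1, the epithelial cadherin, changed by 0.16 in the pre-miR-371 line and by -0.16 in the GFP vector line, a difference of 0.32 (adjusted p = 0.0433). PLIN1, a coat protein of lipid droplets, rose by 0.37 in the pre-miR-371 line and by 0.92 in the GFP vector line, a difference of -0.55 (adjusted p = 0.0423), with all its group means under 6. The calls of FASN and LBR were lost without most single arrays, as given above, and those of CDH1 and PLIN1 were not examined that way. Groups of 3 arrays were not tested for outlying arrays.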

How the results depend on the processing

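The rise of most sterol enzymes, the fall of ELOVL6, FASN and ACLY and the small differences between the lines were recomputed under each alternative. Values are given for the pre-miR-371 line before the GFP vector line, and the cause of a change was not tested. With the mean of all probe sets, 0 and 0 fatty acid enzymes were called higher with erlotinib by limma, ACACA turned to -0.23 and -0.28, the median of sterol enzymes was 0.29 and 0.22 and that of fatty acid enzymes -0.33 and -0.36. It also ended the calls of SCD (adjusted p = 0.358 and 0.742), FADS2 (0.627 and 0.162) and, in the GFP vector line, SREBF1 (0.311). Between the lines, that setting called 0 members higher with DMSO (median -0.0581 for sterol and -0.12 for fatty acid enzymes) and 2 with erlotinib (fatty acid median -0.0671), and 0 had a difference of the responses (fatty acid median 0.0441). Without probe sets shared by transcripts or open to cross-hybridization, where a gene had another, the sterol medians were 0.28 and 0.33 and the fatty acid medians -0.37 and -0.54. FADS2 turned to -0.24 and -0.28, SC5D to -0.10 and MYLIP to -0.20 in the GFP vector line, and ABCG1 between the lines to -0.11 with erlotinib and -0.10 with DMSO. None of these reversed values was called. The sets behind them had low means, 3.84 for FADS2, 2.80 for SC5D, 4.79 for MYLIP and 4.08 for ABCG1. In that setting 0 members were higher with DMSO between the lines, with medians of -0.0772 for sterol and -0.0965 for fatty acid enzymes. Testing every probe set called 1 member lower between the lines with DMSO and 0 for the difference of the responses.

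Among genes with a mean of at least 6, 1 sterol enzyme fell in the pre-miR-371 line, and between the lines 6 members were lower with erlotinib, and 2 were higher and 7 lower with DMSO (sterol median -0.0039). Between the lines, fitting only the groups compared called 3 members higher with erlotinib, and 0 higher and 1 lower with DMSO. Repeating the quantile normalization gave sterol medians of 0.51 and 0.52 and fatty acid medians of -0.13 and -0.20. Between the lines it called 2 members higher and 0 lower with DMSO (medians 0.0262 for sterol and 0.0059 for fatty acid enzymes), with sterol medians of 0.033 with erlotinib and 0.0113 for the difference of the responses. Centring arrays on their medians gave sterol medians of 0.46 and 0.40, a fatty acid median of -0.32 in the GFP vector line, and sterol medians of -0.06 between the lines with DMSO and 0.0712 for the difference of the responses. Between the lines, moderation with a trend and robust priors called 5 members lower with erlotinib, 3 higher and 8 lower with DMSO, and 2 for the difference of the responses. Array weights called 2 sterol enzymes lower in the GFP vector line (median 0.41), and 4 members higher and 9 lower between the lines with DMSO, with sterol medians of 0.0111 with erlotinib, -0.0563 with DMSO and 0.0718 for the difference of the responses. The paper's array methods name limma and also ask for a fold over 1.5. A fold over 1.5 as well left 11 and 11 members and 6 and 6 sterol enzymes higher with erlotinib, 0 sterol enzymes lower in the GFP vector line, 0 fatty acid enzymes higher in the pre-miR-371 line, and 0 calls between the lines and for the difference of the responses. The t-test of the paper's general statistics, which is not its array criterion, called 1 and 2 sterol enzymes lower at an unadjusted p under 0.05. Between the lines it called 9 members higher and 6 lower with erlotinib and 3 higher and 10 lower with DMSO. After Benjamini-Hochberg adjustment it called 2 sterol enzymes lower in the GFP vector line, and 2 higher and 1 lower with erlotinib and 0 higher and 1 lower with DMSO between the lines.

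The replicate numbers were not taken to pair the arrays, since not every pair correlated: of 18 pairs with the same number, 7 had correlated deviations over 0.1 (range -0.057 to 0.198), although 10 of 12 arrays correlated best with their own number, a hint from the data only. With the replicate number as a block, 5 members were lower between the lines with erlotinib and 2 with DMSO, and no other count moved by over 1.5 times. The block added the call of MVK in the pre-miR-371 line (adjusted p = 0.0377) and, between the lines with erlotinib, those of SREBF1 (0.0464) and FADS2 (0.0486). It removed those of FDPS with erlotinib (0.053) and of PMVK (0.0504) and MVD (0.0596) with DMSO.

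Leaving out each array in turn gave 18 to 20 and 20 to 21 members higher with erlotinib, 4 to 4 and 5 to 6 lower, 9 to 11 and 11 to 11 sterol enzymes higher, 0 to 0 and 1 to 2 lower, and 3 to 3 fatty acid enzymes in each direction and line. The sterol medians ran from 0.45 to 0.50 and from 0.42 to 0.46, and the fatty acid medians from -0.15 to -0.0462 and from -0.31 to -0.23. Between the lines, 3 to 5 members were higher and 2 to 5 lower with erlotinib (medians -0.0263 to 0.016 for sterol and 0.0333 to 0.065 for fatty acid enzymes), and 0 to 2 higher and 0 to 3 lower with DMSO (medians -0.0685 to -0.0167 and -0.0735 to -9e-04). For the difference of the responses, 0 to 1 were above and 0 to 0 below 0 (medians 0.0241 to 0.0718 for sterol and 0.0824 to 0.16 for fatty acid enzymes). The number of arrays limits the precision.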
